A study of Mus musculus with 2 samples.

Results

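Polycomb repressive complex 2 (PRC2) is represented here by 10 genes taken as a named list from the known subunits of the complex, out of 22238 protein-coding gene symbols annotated on mm9. The 5 core subunit genes are Eed, Ezh1, Ezh2, Suz12 and Rbbp7. The 5 accessory subunit genes are Mtf2, Phf1 and Phf19, which belong to the PRC2.1 form of the complex, and Jarid2 and Aebp2, which belong to the PRC2.2 form. The binding of POU5F1 (OCT4), a POU-domain transcription factor of pluripotent cells, was measured around these genes by chromatin immunoprecipitation and sequencing (ChIP-seq) with an antibody to POU5F1. The single group held 2 biological replicates of E14TG2a.4, a male embryonic stem cell line of mouse strain 129/Ola, labelled as embryonic with an age of 3.5 days and with no treatment named. Both replicates come from the same line, so they do not sample other lines or strains, and the control experiment that the labels point to was not analysed here. A peak was counted for a gene when the centre of the peak lay in the gene body or within 50 kb of one of its transcript starts.

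PRC2 places methyl groups on lysine 27 of histone H3, a mark of repressed chromatin that in embryonic stem cells covers many genes of later development. EED, SUZ12 and one of the catalytic subunits, EZH1 or EZH2, form the core together with a histone-binding RBBP protein, whereas the accessory subunits influence where on chromatin the complex is placed and how active it is. POU5F1 binds the octamer element, often beside a SOX site to which its partner SOX2 binds, and acts with NANOG in keeping stem cells pluripotent.

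The deposited lists set side by side number 5. Those on mm9 cover replicate 1 (1330 peaks), replicate 2 (6324) and the whole series (5515), and those on mm10 are an optimal (3994) and a conservative (2676) list. Each peak carries 1 signal value with no replicate error, and the read depth is unknown. No expression was measured, so the identity of the cells could be checked only at the sites of POU5F1 itself. In the whole-series list the strongest peaks near Pou5f1, Sox2 and Nanog, the genes of the 3 best known pluripotency factors, ranked 4, 35 and 430 by signal.

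In the whole-series list, 5 of the 10 PRC2 genes had at least 1 POU5F1 peak, and 13 peaks belonged to them. The genes were Jarid2 with 4 peaks, Eed with 4, Mtf2 with 3, and Suz12 and Ezh1 with 1 each. Ezh2, Rbbp7, Phf1, Phf19 and Aebp2 had none. The strongest peaks of the set were those of the accessory genes Jarid2 and Mtf2, with signals of 16.4 and 14.7, ahead of the core genes Eed at 7.76, Suz12 at 7.34 and Ezh1 at 6.75. Across all protein-coding genes the same rule gave a peak to 28.5%. The PRC2 share of 5 in 10 is above that background, but 10 genes are few, gene lengths were not matched and no test was made.

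The 5 member peaks that overlapped a peak in the list of each replicate are shown as sequence, because these are the sites found in both replicates. Each line is the forward strand of NCBIM37 (mm9), 5′ to 3′, centred on the peak and cut at 300 bases or at the peak's own ends. Capitals mark the match nearest the peak centre to the POU octamer ATGCAAAT with at most 1 mismatch, or to the SOX-POU composite with at most 3 mismatches. The composite is the SOX site CATTGT, then C or T, then the octamer, and both motifs were searched on both strands. The stretches are chr13:44800889-44801188 (Jarid2), chr5:108506044-108506343 (Mtf2), chr7:97155596-97155895 (Eed, distal peak), chr11:79794155-79794454 (Suz12) and chr7:97146139-97146435 (Eed, proximal peak), in order of whole-series signal.
Jarid2: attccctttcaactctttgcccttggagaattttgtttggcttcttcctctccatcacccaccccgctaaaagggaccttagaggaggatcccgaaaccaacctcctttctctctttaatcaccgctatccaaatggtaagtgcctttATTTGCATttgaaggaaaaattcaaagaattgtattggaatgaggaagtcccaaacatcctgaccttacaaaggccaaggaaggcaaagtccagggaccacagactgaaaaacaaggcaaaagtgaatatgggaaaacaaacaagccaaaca
Mtf2: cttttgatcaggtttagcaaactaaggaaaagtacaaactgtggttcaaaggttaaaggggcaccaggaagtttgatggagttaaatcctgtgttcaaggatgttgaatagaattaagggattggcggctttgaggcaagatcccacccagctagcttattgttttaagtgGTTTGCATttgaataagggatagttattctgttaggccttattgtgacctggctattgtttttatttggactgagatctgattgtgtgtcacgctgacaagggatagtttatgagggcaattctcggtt
Eed distal: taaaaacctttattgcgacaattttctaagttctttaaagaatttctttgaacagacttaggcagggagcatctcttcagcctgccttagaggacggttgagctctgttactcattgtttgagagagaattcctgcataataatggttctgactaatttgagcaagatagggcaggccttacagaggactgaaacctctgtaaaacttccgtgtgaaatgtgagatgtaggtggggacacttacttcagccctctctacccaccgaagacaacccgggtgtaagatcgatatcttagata
Suz12: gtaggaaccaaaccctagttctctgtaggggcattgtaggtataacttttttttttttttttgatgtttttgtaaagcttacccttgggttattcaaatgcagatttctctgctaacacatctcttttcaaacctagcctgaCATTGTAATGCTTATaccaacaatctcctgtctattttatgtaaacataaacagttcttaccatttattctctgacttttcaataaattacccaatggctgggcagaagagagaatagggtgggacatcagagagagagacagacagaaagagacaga
Eed proximal: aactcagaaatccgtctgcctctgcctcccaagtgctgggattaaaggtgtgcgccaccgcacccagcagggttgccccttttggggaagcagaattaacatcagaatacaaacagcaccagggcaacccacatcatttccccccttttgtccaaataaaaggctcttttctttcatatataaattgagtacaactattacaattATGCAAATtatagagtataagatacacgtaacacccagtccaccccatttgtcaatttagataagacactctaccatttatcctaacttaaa

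Jarid2 encodes a PRC2.2 subunit that binds DNA and helps recruit the complex in embryonic stem cells. It had the strongest of all PRC2 peaks in the whole-series list, at chromosome 13, 44800695 to 44801383, in intergenic sequence 23.8 kb upstream of the first annotated start. The signal there was 16.4, with a deposited −log10 p of 116, and the peak ranked 56 of 5515. This site was called in both replicates, with a signal of 11.1 and rank 112 in replicate 1 and a signal of 26.9 and rank 70 in replicate 2. The signal scale differs between the lists, so the ranks and not the levels can be read across them. The centre of the peak lay 2 bp from an exact octamer on the reverse strand, printed above as ATTTGCAT.

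Around that site Jarid2 had 3 weaker whole-series peaks. They lay 6.98 kb and 0.783 kb upstream of the nearest start and 17.9 kb downstream of one, in an intron, with signals of 5.87, 5.92 and 5.49. All 3 ranked beyond 2000 and were called in replicate 2 but not in replicate 1. Replicate 2 alone added another 2 peaks, 13975 bp upstream of the first start and 24651 bp downstream of another. Jarid2 is the longest of the 10 genes, at 192 kb, yet only 1 of its 4 whole-series peaks lay inside the gene body. Aebp2, the other PRC2.2 gene and a zinc finger protein, had no whole-series peak, and its nearest one lay 285272 bp away, but replicate 2 alone gave a peak 19.1 kb upstream of it with a signal of 9.07.

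Mtf2, which encodes a Polycomb-like protein that brings PRC2 to CpG islands, had its strongest peak in an intron. It lay at chromosome 5, 108505911 to 108506477, 11.5 kb downstream of the first start, with a signal of 14.7, a deposited −log10 p of 77.0 and rank 83. In replicate 1 the site had a signal of 11.6 and rank 82, and in replicate 2 a signal of 25.0 and rank 85. The Mtf2 and Jarid2 sites were thus the 2 member peaks within the first 112 of the whole-series list and of each replicate list. Nearest to the Mtf2 centre, 25 bp away, was an octamer with 1 mismatch, T8C, counted from 1 at the 5′ end of the octamer, and an exact octamer lay 219 bp from the centre, beyond the printed stretch. The other 2 Mtf2 peaks were intronic too, with signals of 4.41 and 5.29, and both were called in replicate 2 only. Phf1 and Phf19, the other Polycomb-like genes, had no peak in any of the mm9 lists, and their nearest whole-series peaks were 422 kb and 131 kb away. The peak nearest to Phf19 lay 0.203 kb from the start of Hspa5, an endoplasmic reticulum chaperone gene.

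**Figure D1:**
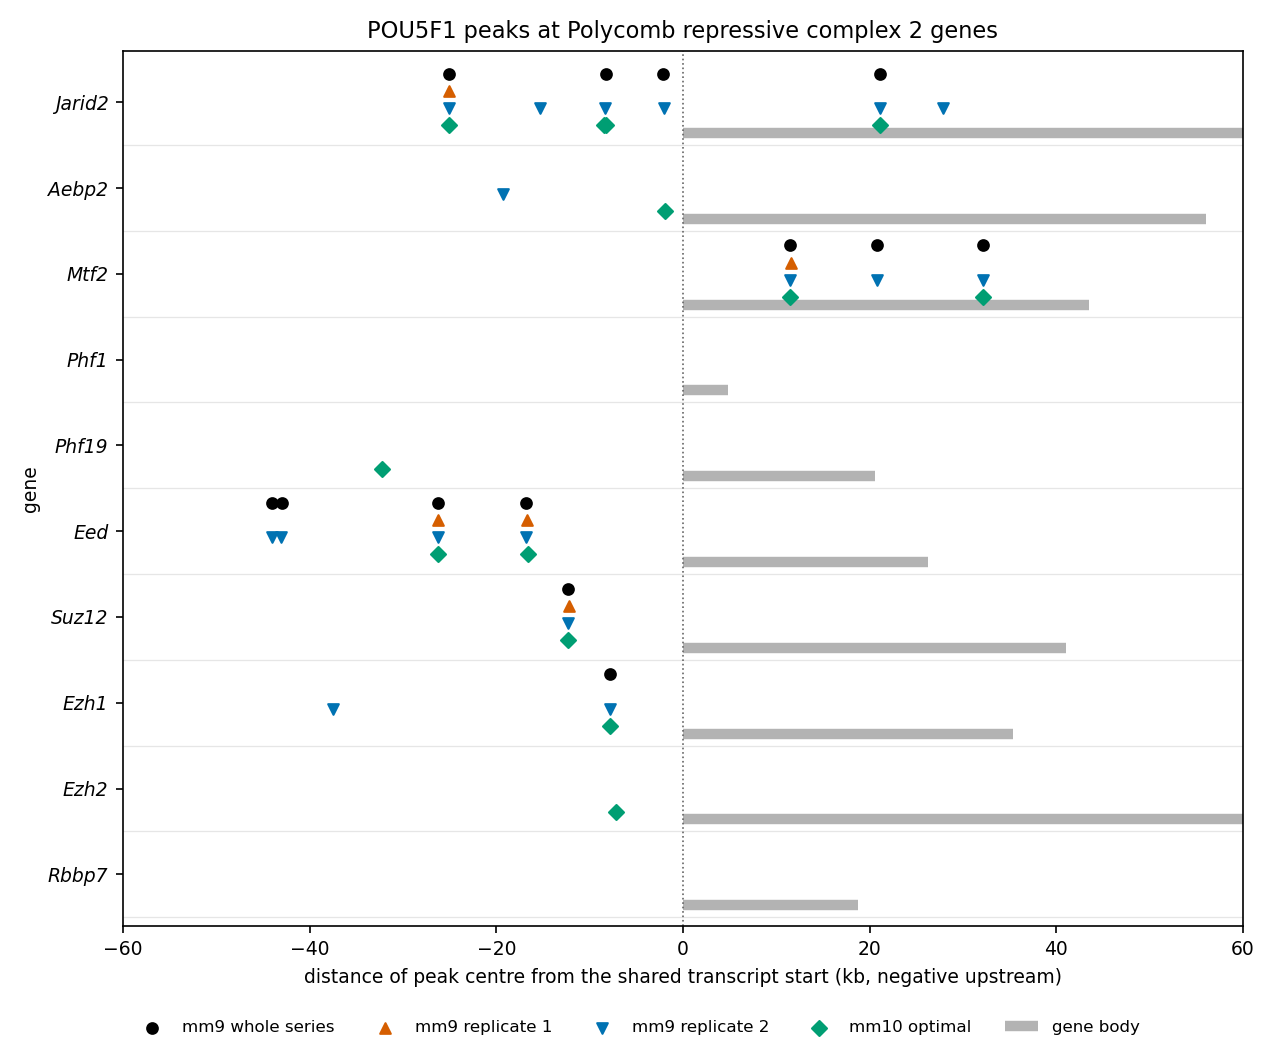
Position of POU5F1 peaks around the 10 PRC2 genes in the 3 mm9 lists and the mm10 optimal list, in kb from a transcript start that both builds share (horizontal axis). Jarid2 and Mtf2 carry the strongest sites, 25.1 kb upstream and 11.5 kb downstream, and Rbbp7 and Phf1 carry no peak.

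Among the core genes Eed, whose protein reads the methyl mark that the complex makes, had the most peaks. All 4 were intergenic and upstream of the gene, 16.8, 26.3, 43.0 and 44.0 kb from its first start. Their signals were 6.17, 7.76, 3.82 and 4.63. The 2 nearer ones were called in both replicates, with signals of 5.6 and 7.47 in replicate 1 and of 9.07 and 10.6 in replicate 2, and the 2 farther ones in replicate 2 only. The proximal one held an exact octamer 61 bp from its centre. The distal one, although stronger, held no octamer with at most 1 mismatch and no composite with at most 3.

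Suz12, a core subunit needed for the stability of the complex, had a single intergenic peak 12.3 kb upstream, at chromosome 11, 79794116 to 79794493. Its signal was 7.34, with rank 1095, and it was called in replicate 1 at 6.84 and in replicate 2 at 11.3. A composite match with 3 mismatches, Y7A, A12T and A13T, where Y stands for C or T and positions count from the 5′ end of the composite, lay 1 bp from the centre. Ezh1, the catalytic subunit more typical of non-dividing cells, had 1 intergenic whole-series peak 7.78 kb upstream, with a signal of 6.75, called in replicate 2 only. Replicate 2 alone placed another peak 37.5 kb upstream of Ezh1, in a coding exon of Wnk4, a kinase gene whose start was 1366 bp from that peak. Ezh2, the main catalytic subunit of dividing cells, had no mm9 peak within the window, and its nearest lay 277 kb away near Zfp282. Rbbp7, a histone-binding subunit shared with other chromatin complexes, was farthest of all, at 2229 kb.

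At the outer edge of the 50 kb window, the Eed peak 44.0 kb upstream was the last one counted, and the next member peak outside, 81.5 kb upstream of Ezh1 with a signal of 5.78, lay closer to Becn1, an autophagy gene, at 5.68 kb. For each of the 13 whole-series member peaks the nearest protein-coding start was that of the member itself, whereas this held for 47.7% of 8431 gene-peak pairs across all protein-coding genes. Of the 13 peaks, 9 were intergenic and 4 intronic. The intronic ones were all in accessory genes, and the 6 core peaks were all intergenic. Over all whole-series peaks, 56.2% had their centre outside every annotated gene.

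No member peak lay within 1 kb of the shared first start of its gene. Counting every start annotated on mm9, 2 of the 13 did, the Jarid2 peak at 0.783 kb and the Mtf2 peak at 0.496 kb from an internal start. Of all peaks, 8.25% lay within 1 kb of any protein-coding start. These shares are not alike, since all 13 member peaks lay within 50 kb of such a start, and 67.2% of all peaks did. The count also depends on the annotation. With the starts annotated on mm10, the main Mtf2 site lay 0.976 kb upstream of an internal Mtf2 start, against 4.26 kb from the nearest mm9 start. The median signal of the 13 peaks was 5.92 and that of all whole-series peaks 5.58. The 6 core peaks had a median of 6.46 and the 7 accessory peaks one of 5.87, so the high rank of the accessory genes rested on 1 peak each of Jarid2 and Mtf2. When genes with a peak were ordered by their strongest signal, Jarid2 was at position 111 and Mtf2 at 147 of 6335, Eed at 1411, Suz12 at 1600 and Ezh1 at 1986.

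**Figure D2:**
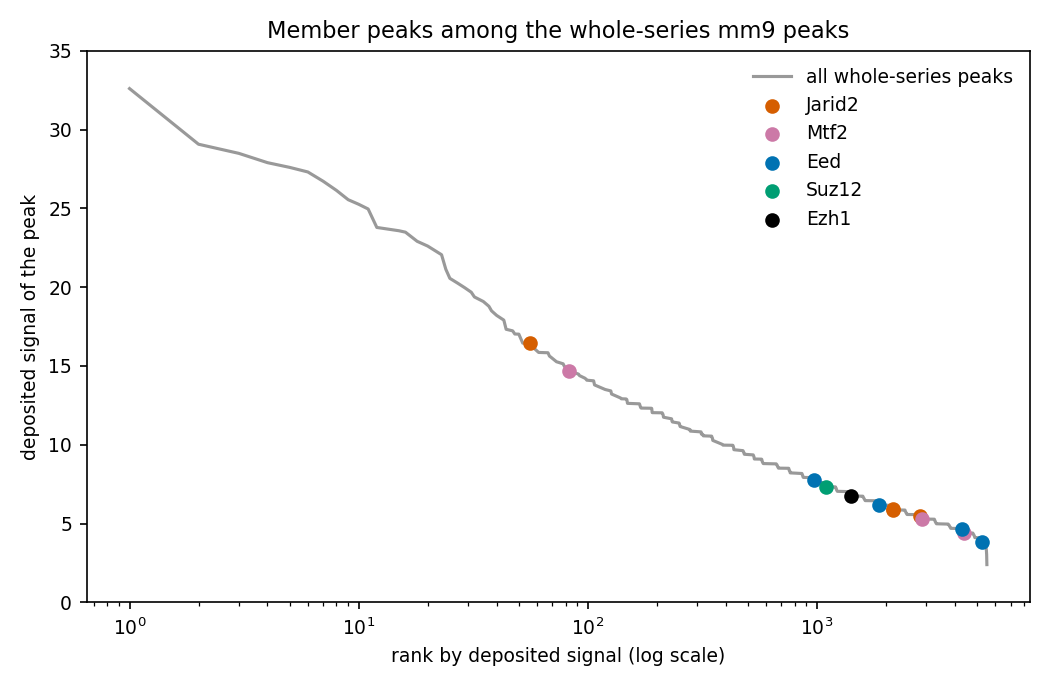
Signal of the POU5F1 peaks of PRC2 genes against their rank among all 5515 whole-series peaks on mm9. Jarid2 at rank 56 and Mtf2 at rank 83 stand at the steep end of the curve, and the other member peaks lie between rank 970 and rank 5250.

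Several PRC2 genes carried more than 1 peak. At least 3 whole-series peaks were found at 3 members, Jarid2, Eed and Mtf2, and at 1.71% of all protein-coding genes. At least 4 were found at 2 members and at 0.553% of all genes. In replicate 2 at least 3 peaks were found at 3 members and at 2.39% of all genes, but in replicate 1 at 0 members and at 0.0944%. Each mm10 list had 1 such member, Jarid2, against 1.07% of all genes in the optimal and 0.452% in the conservative list. Of its 4 mm10 entries, 2 overlap each other. The peaks of 1 gene share a window and were not counted as independent, and gene lengths were not matched.

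The list of replicate 1 is the shorter, and every member with a peak in it also had one in replicate 2. Replicate 1 had a peak at 4 of the 10 genes, Jarid2, Mtf2, Eed and Suz12, with 5 peaks in all, against 8.57% of all genes. Replicate 2 had a peak at 6, adding Ezh1 and Aebp2, with 17 peaks, against 31.3% of all genes. By role, replicate 1 had peaks at 2 accessory and 2 core genes, and replicate 2 at 3 of each. Both replicates had called 5 of the 13 member peaks (38.5%), and replicate 2 alone the other 8. Among all 5515 peaks of that list the share called in both was 21.9% (95% Clopper-Pearson interval 20.8 to 23.0%, counting error only). That interval is for the 5515 peaks. No interval was made for the share of the 13 member peaks, which are few and belong to 5 genes, so the difference was not tested. The peaks in both lists had a median whole-series signal of 7.76, and those in replicate 2 only had one of 5.39.

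**Figure D3:**
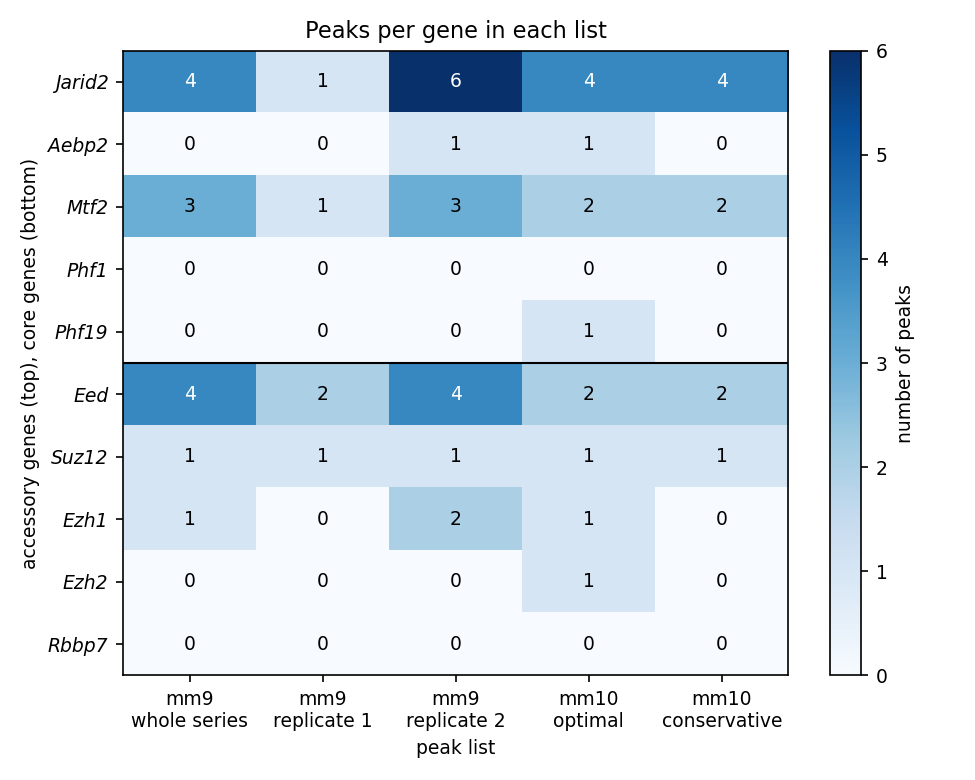
Number of POU5F1 peaks per PRC2 gene in each of the 5 lists. Jarid2, Mtf2, Eed and Suz12 have at least 1 peak in all 5 lists, and Rbbp7 and Phf1 have none in any.

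The mm10 lists were compared by distance from a start that both builds share, since no coordinates were carried between builds. In the optimal list, 8 of the 10 genes had a peak, against 20.5% of 17491 protein-coding genes, and 13 peaks belonged to them. In the conservative list the number was 4 of 10, again Jarid2, Mtf2, Eed and Suz12, with 9 peaks, against 14.5%. The 4 genes with a peak in every list were thus 2 accessory and 2 core genes. The 3 genes that gained a peak only in the optimal list relative to the whole-series list were Ezh2 at 7.12 kb upstream with a signal of 28.1, Phf19 at 32.2 kb upstream with 21.9, and Aebp2 at 1.92 kb upstream with 21.0. The Aebp2 peak is not the one that replicate 2 gave on mm9, which lay 19.3 kb upstream of the same start. The Phf19 peak lay closer to Traf1, a signalling adaptor gene, at 15571 bp.

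**Figure D4:**
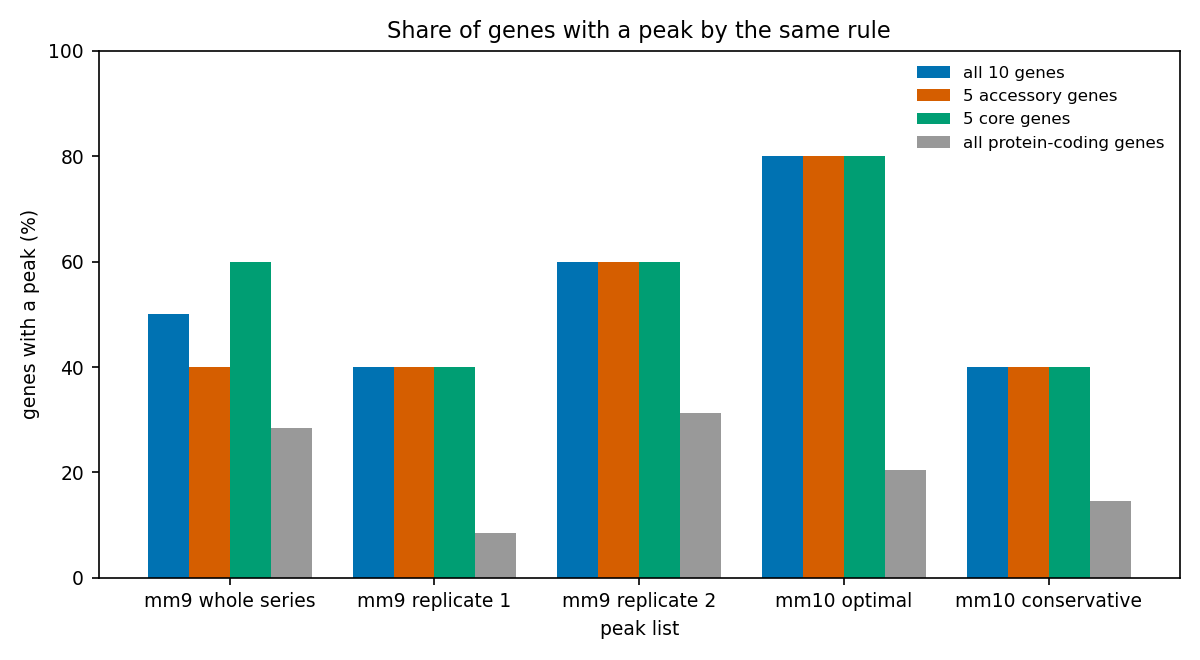
Percent of PRC2 genes with a POU5F1 peak beside the percent of all protein-coding genes with one, in each of the 5 lists. PRC2 genes range from 40.0% to 80.0%, and all genes from 8.57% to 31.3%.

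The sites matched closely where both builds had one. The lists of both builds come from the same 2 replicates, so such a match is not independent evidence of a site. Of the 13 mm9 whole-series peaks, 9 had an optimal mm10 peak at an overlapping distance from the shared start, and 10 of the 13 optimal peaks had a whole-series peak. Measured from that shared start, which for Jarid2 lies downstream of the first annotated one, the main Jarid2 site stood 25.1 kb upstream on mm9 and 25.0 kb upstream on mm10, where its signal of 150 ranked 69. The main Mtf2 site stood 11.5 kb downstream on both, with a signal of 155 and rank 64 on mm10. The 4 whole-series peaks without an mm10 counterpart were the Jarid2 peak 2.1 kb upstream, the Mtf2 peak 20.8 kb downstream and the 2 outer Eed peaks. The mm10 optimal list gave 2 overlapping entries at the Jarid2 site 8.3 kb upstream, so 1 of its 13 entries is not a separate site.

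The relaxed mm10 lists, with 300000 entries of peaks and background per replicate, gave a rank in each replicate for all 13 optimal member peaks. The main Jarid2 site ranked 76 in replicate 1 and 71 in replicate 2, and the main Mtf2 site 61 and 79. The Suz12 site ranked 1384 and 1695, and the distal Eed site 1210 and 1409. The other sites of Jarid2, Mtf2 and Eed ranked 1121 in replicate 1 and 815 in replicate 2 for the intronic Jarid2 site, 6305 and 2542 for the Jarid2 site 8.4 kb upstream, 3475 and 2767 for the second Mtf2 site, and 5172 and 3089 for the proximal Eed site. The sites of the 4 genes that had a peak in the optimal but not in the conservative list ranked 27704 in replicate 1 and 4112 in replicate 2 for Ezh1, 33793 and 3915 for Ezh2, 16999 and 29451 for Phf19, and 5432 and 192771 for Aebp2. Each of these 4 sites thus ranked beyond 5000 in at least 1 replicate, as did the Jarid2 site 8.4 kb upstream and the proximal Eed site. The rank of 192771 is that of the entry at the optimal Aebp2 peak. Another replicate 2 entry, 957 bp upstream of the shared Aebp2 start, ranked 5040. Of the 13 optimal member peaks, 2 were within the first 100 of both replicates, which is 15.4%, and 2.11% of the 3704 optimal peaks found in both relaxed lists were. Within the first 5000 of both replicates the shares were 46.2% of member peaks and 50.6% of the same 3704 optimal peaks. Optimal peaks missing from a relaxed list are left out of that 50.6%. For Rbbp7 and Phf1, with no optimal peak, the best entries in the relaxed list of the pooled replicates ranked 8188 and 14290. In replicate 2 their best entries ranked 3930 for Rbbp7 and 11255 for Phf1. In replicate 1 Phf1 had one at 6241, whereas Rbbp7, like Ezh2, had none among the first 20000.

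**Figure D5:**
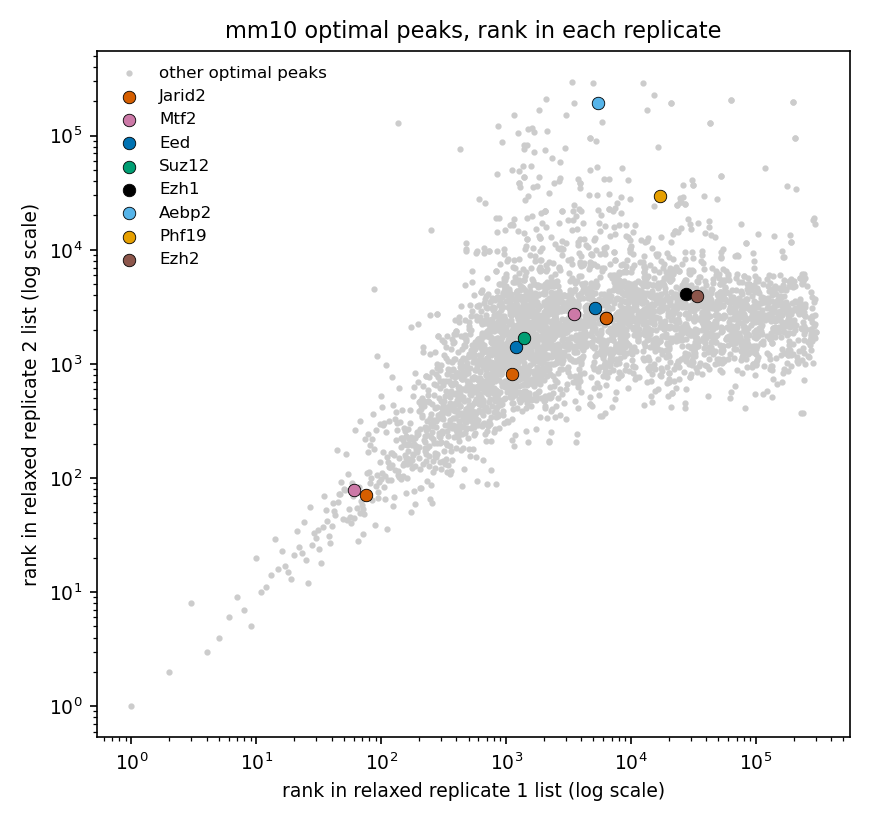
Rank of each optimal mm10 peak in the relaxed list of replicate 1 against its rank in that of replicate 2, on logarithmic axes, with the peaks of PRC2 genes marked. Jarid2 (76 and 71) and Mtf2 (61 and 79) lie in the corner of highest signal in both replicates, and Aebp2 (5432 and 192771) lies far from equal ranks.

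The sequence elements of the member peaks were described over the whole peak. No member peak held the composite with at most 2 mismatches, and 9.99% of all whole-series peaks did. With at most 3 mismatches, 4 of 13 did, or 30.8%, and 31.0% of all peaks did. An exact octamer was found in 3 of 13, those of Jarid2, Mtf2 and Eed named above, or 23.1%, and in 15.01% of all peaks. Within 100 bp of the centre it was in 2 of 13, or 15.4%, and in 13.4% of all peaks. The member peaks were wider, with a median of 414 bp against 367 bp for all peaks. With at most 1 mismatch the octamer was in 10 of 13 peaks, or 76.9%, and in 61.4% of all peaks. These are matches of letters within a peak and not measured binding sites.

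Other Polycomb genes gave a frame for these counts. Of 21 genes of Polycomb repressive complex 1 (PRC1), which places ubiquitin on histone H2A and binds the PRC2 mark, 11 had a whole-series peak, among them Bmi1, Rnf2, Phc1, Phc2, Phc3 and Rybp. Of 9 further genes tied to PRC2 or to removal of its mark, 3 had one: Epop, listed as E130012A19Rik, Lcor and Elob, listed as Tceb2. Those shares were 52.4% of the PRC1 genes and 33.3% of the 9 further genes, beside 28.5% of all protein-coding genes. The share of the 9 further genes was thus close to that of all genes. The PRC2 list, at 5 of 10, stood near the PRC1 list in share, and the difference was not tested.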

How the data were processed

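POU5F1 ChIP-seq peak lists of 2 biological replicates were used as deposited. The signal of each peak is the authors' value, of unstated scaling, and it served only to rank and describe peaks within 1 list. The mm9 lists deposited by the authors also give a −log10 p-value per peak, of at least 5. The aligner, the peak caller, the threshold behind the optimal and conservative lists, and how replicates were combined in the whole-series list, were looked for and are not given in the sources used here. No read counts were used, so depth is unknown and a missing peak does not show absent binding.

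Peaks on mm9 were placed on NCBIM37 with GENCODE M1, and those on mm10 on RefSeq gene bodies and starts of GRCm38, whose tables are not complete. Coordinates were never converted: the 300-base RefSeq promoter sequence of each of the members' starts matched mm9 once, and distances from that start were compared. Overlap meant at least 1 bp. The steps were run with Python 3.11.15, pandas 2.3.3 and pysam 0.24.0 and were tested on simulated data. All 10 members, the nearest genes to their peaks, the other listed Polycomb genes with a peak (of PRC1 only some, and not every name is reported here), and Pou5f1, Sox2 and Nanog were named by rule; Wnk4, Traf1, Becn1, Hspa5 and Zfp282 were added after their values were seen. Members and lists were chosen with earlier results of these data known. The closing section names some of the windows, overlap rules and motif settings tried. Others were a 100 kb window, transcript starts without gene bodies, any base of the peak, and peaks with −log10 p of at least 10. Also tried were protein-coding starts only, the nearest start only, centres within 100 bp, at most 1 composite mismatch, and motifs within 100 bp of the centre. Matches of peaks by distance, motif marks with mismatches, position classes and the peak next outside the window were added after seeing the data. No test was made, since peaks and genes are not replicates.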

Additional observations from a re-analysis of the deposited data

How the results depend on the processing

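The 5 members with a peak, 13 member peaks, 3 core and 2 accessory members were close to these values under most settings. With a 10 kb window they were 3 members, 7 peaks and 1 core member, since fewer peaks fall in a narrower window. Using 1 replicate list in place of the whole-series list gave 4 to 6 members, 5 to 17 peaks, 2 to 3 core and 2 to 3 accessory members. Without replicate 2, whose list is the longer, 5 peaks were left. The mm10 optimal list gave 8 members and 4 accessory members, and the cause was not tested. Allowing 3 mismatches moved the composite from 0 to 4 member peaks, and allowing 1 moved the octamer from 3 to 10, since looser motifs match more letters. The 5 peaks in both replicate lists were 4 with a reciprocal overlap of 50%. Over all alternatives, 45 values were within 1.5 times the main value, so that 13 peaks could become 9 or 17, and 8 were not. The unknown depth limits every statement on a gene without a peak.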
